A study of Mus musculus with 20 samples.

Results

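Mm007 and Mm008 are 2 of the 120 mouse probes on the Sterolgene V1 array, a small spotted array, and each is printed at 3 spots. They were chosen by their loess-normalized ratios on all 20 arrays: both had positive mean ratios in wild type and PXR-deficient liver and negative ones where both receptors were missing. The agreement of the 2 probes across arrays was part of the choice. The ratios and their agreement are therefore given as a description without a test. Neither identifier is paired with a gene in the files, so no gene name, role or sequence is attached to the probes. CAR, the constitutive androstane receptor, and PXR, the pregnane X receptor, are nuclear receptors of the liver that switch on genes of drug and steroid metabolism when foreign compounds are present. They bind related DNA elements and share many target genes. TCPOBOP is a potent agonist of mouse CAR and is the usual tool for activating it in mouse liver.

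Each of the 20 arrays compared 1 treated liver with a pool of control livers of the same genotype. All mice were male C57BL/6J aged 9 to 12 weeks, and livers were taken 12 h after an intraperitoneal injection. Treated mice received TCPOBOP at 10 mg/kg, and control mice received the vehicle, corn oil with 5% DMSO. RNA of the treated liver was labelled with Cy5 (red), and RNA pooled from 6 vehicle livers with Cy3 (green). There were 6 arrays of wild type livers (WT) and 6 of livers deficient in CAR (CARKO). Another 4 arrays held livers deficient in PXR (PXRKO), and 4 held livers deficient in both receptors, called CAR/PXR as in the sample titles. How the receptors were deleted and where in the body is not given in the sources used here. Whole liver RNA was used, so fewer cells of a type and less RNA per cell cannot be told apart. Every pool is a single control sample, dyes were not swapped, and a dye bias of a probe stays in each ratio.

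On 4 arrays (WT 3, WT 5, CARKO 3 and CAR/PXR 3) the protocol text describes the vehicle pool for the Cy5 channel, while their dye and source labels are those of the other arrays. For CAR/PXR 3 the pool's genotype is also given as PXR deficient in one label. Leaving these 4 arrays out changed no sign of the means or differences of either probe, and the CAR/PXR minus WT difference was then −1.28 for Mm007 and −0.88 for Mm008. A mean whose arrays all shared a sign could not change it this way. Between 0 and 247 spots per array carried a flag. Per array, the mouse spots had a median signal of 226 to 987 units in Cy5 and 403.5 to 1136 units in Cy3.

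None of the 120 member spots (6 on each of 20 arrays) was flagged and none had a saturated pixel. A probe counted as well above background when most of its spots stood over 2 SDs of the background above their local background. Mm007 did so in both channels on all 20 arrays. Mm008 missed this limit in Cy5 on CARKO 5 and in Cy3 on CAR/PXR 1. The 3 Mm007 spots lie in block 1 of the array at row 1 column 7, row 7 column 2 and row 12 column 12. The 3 Mm008 spots lie at the same grid places of block 2. The SD of the log2 ratio among the 3 spots of an array had a median of 0.10 for Mm007 and 0.16 for Mm008, and of the 120 spot values 115 had the sign of their probe's mean. The largest spot SDs were 0.41 for Mm007 (WT 4) and 0.31 for Mm008 (CARKO 3). On the CAR/PXR arrays the spot SDs of Mm008 ran from 0.047 to 0.28, and the SD between those arrays was 0.16.

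In wild type liver both probes were on average higher in the treated livers than in the pool. The log2 ratio of Mm007, treated over pool after normexp background correction and loess, was lowest at 0.16 on WT 1, had a median of 0.71 and reached 1.17 on WT 6. All 6 arrays lay above 0, which was also so for 18 of the 82 probes that could be followed in every genotype (22%). The mean was 0.69 ± 0.35 (SD, n = 6), a 1.61-fold rise on the geometric mean. Mm008 ran from −0.34 on WT 1 through a median of 0.49 to 0.93 on WT 6, with a mean of 0.41 ± 0.43 (SD, n = 6) or 1.33-fold. Of its WT arrays, 5 lay above 0 and WT 1 lay below. The same 2 arrays, WT 1 and WT 6, gave the lowest and the highest value of both probes. Among the 82 WT means, whose median was −0.03, Mm007 stood in place 9 from the top and Mm008 in place 16.

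In CAR-deficient liver the ratios gathered near 0 apart from a single array. Mm007 had a median of 0.14 and a highest value of 0.22 on CARKO 4, and its lowest value was −0.79 on CARKO 5. Mm008 had a median of −0.07, a highest value of 0.06 on CARKO 2 and a lowest value of −0.93, again on CARKO 5. The means were −0.02 ± 0.39 for Mm007 and −0.20 ± 0.37 for Mm008 (SD, n = 6). Without CARKO 5 they were 0.13 and −0.05, so the mean of Mm007 changed sign. On CARKO 5 the log2 ratios of the 82 probes had an SD of 0.81, against 0.20 to 0.41 on the other CARKO arrays. The median unnormalized log2 ratio of its mouse probes was the lowest of the genotype, the other CARKO arrays running from −0.37 to 0.29. The part of these array features in the low values was not tested.

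In PXR-deficient liver both probes lay above 0 on all 4 arrays. Mm007 was at 0.45, 0.06, 0.54 and 0.74 on PXRKO 1 to 4. Mm008 was at 0.37, 0.11, 0.66 and 0.68 on the same arrays. PXRKO 2 was the lowest and PXRKO 4 the highest array of both probes. The means were 0.45 ± 0.28 for Mm007 and 0.45 ± 0.27 for Mm008 (SD, n = 4), which are 1.36-fold and 1.37-fold. They stood in places 11 and 10 from the top of the 82 probes. Of those 82 probes, 17 lay above 0 on every measured PXRKO array (20.7%).

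In liver without both receptors the 2 probes lay below 0 on all 4 arrays. Mm007 was at −0.73, −0.76, −0.33 and −0.48 on CAR/PXR 1 to 4. Mm008 was at −0.72, −0.42, −0.55 and −0.37. The means were −0.57 ± 0.21 for Mm007 and −0.52 ± 0.16 for Mm008 (SD, n = 4), so treated livers stood 1.49-fold and 1.43-fold lower than the pool, relative to the other probes. Mm007 was in place 4 from the bottom of the 82 means and Mm008 in place 7. A value below 0 on every measured CAR/PXR array was common, with 24 of the 82 probes (29.3%). Without CAR/PXR 1, where Mm008 was near background in Cy3, its mean was −0.45.

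**Figure D1:**
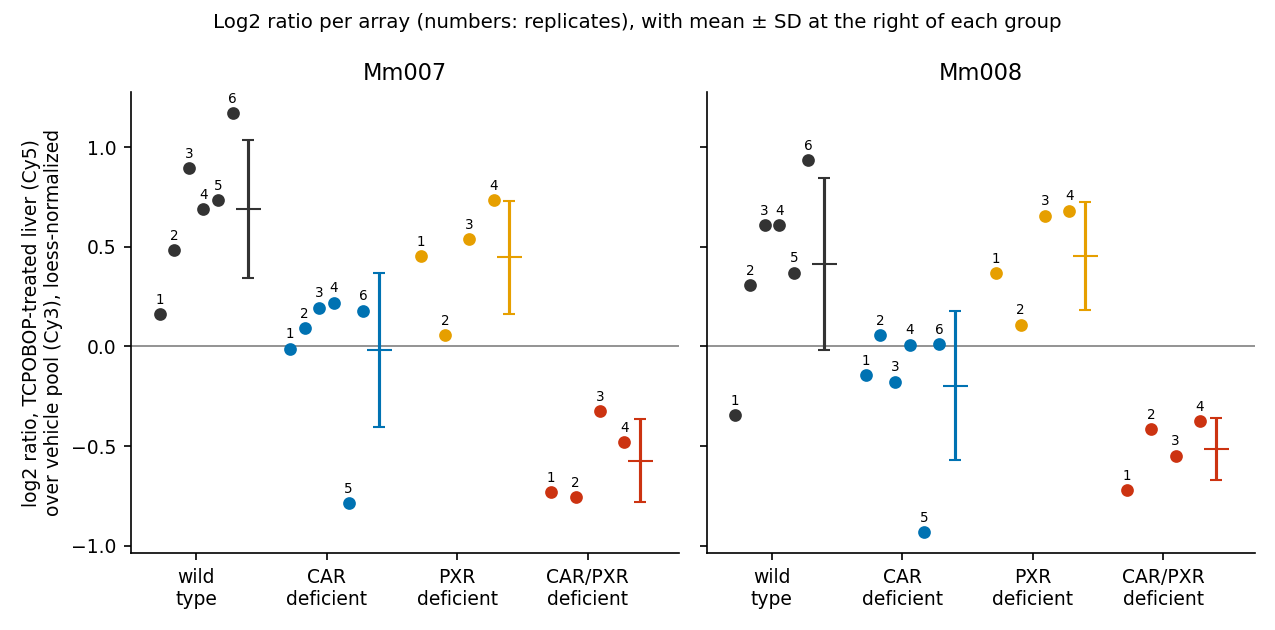
Loess-normalized log2 ratio (vertical axis, treated liver in Cy5 over vehicle pool in Cy3) of Mm007 (left) and Mm008 (right) on each array, by genotype; numbers are replicates and bars are mean ± SD. All PXRKO points lie above 0 and all CAR/PXR points below it, and CARKO 5 lies at −0.79 and −0.93, apart from the other CARKO arrays.

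The pattern of signs over the genotypes was not particular to Mm007 and Mm008. Mm050, Mm051 and Mm052 shared it with larger WT means of 1.16, 1.60 and 1.76. Mm076, Mm096 and Mm137 shared it with smaller WT means of 0.022, 0.0024 and 0.025. A mean above 0 in WT and PXRKO with a mean below 0 in CARKO and CAR/PXR was found for 8 of the 82 probes (9.76%), Mm007 and Mm008 included, although Mm007 leaves this set without CARKO 5. In the stricter form, above 0 on every measured WT and PXRKO array and below 0 on every measured CAR/PXR array, there were 5 probes (6.1%). Mm007 was among those 5, and Mm008 was not because of WT 1. In descending order of the mean, Mm007 ran WT, PXRKO, CARKO, CAR/PXR and Mm008 ran PXRKO, WT, CARKO, CAR/PXR. WT and PXRKO overlapped for both probes. After loess the PXRKO minus WT differences were −0.24 ± 0.21 for Mm007 and 0.04 ± 0.22 for Mm008 (SE from the residual spread over all 20 arrays, 16 degrees of freedom). Whether the 2 genotypes differ was not tested. The order of WT and PXRKO depended on the normalization. PXRKO minus WT was 0.94 for Mm007 and 1.02 for Mm008 with centring on the calibration controls, and 0.60 and 0.71 in the authors' deposited table.

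The arrays of the CAR/PXR genotype stood apart from WT for both probes. The log2 ratio of Mm007 was lower by −1.26 ± 0.21 (SE), and the highest CAR/PXR array lay 0.49 below the lowest WT array. For Mm008 the difference was −0.93 ± 0.22 (SE), but the gap between the groups was only 0.03, set by WT 1 and CAR/PXR 4. Full separation in this direction was found for 14 of the 82 probes (17.1%). Against PXRKO the same CAR/PXR arrays were lower by −1.02 ± 0.23 for Mm007 and −0.97 ± 0.24 for Mm008 (SE), with gaps of 0.38 and 0.48 between the groups. There 12 of the 82 probes separated in this direction (14.6%). These 2 comparisons share the CAR/PXR arrays and are not independent of each other.

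Against CARKO the double-deficient livers overlapped for both probes, since CARKO 5 lay below every CAR/PXR array. The differences were −0.55 ± 0.21 for Mm007 and −0.32 ± 0.22 for Mm008 (SE). Without CARKO 5 they were −0.71 and −0.47, and the lowest remaining CARKO arrays, at −0.01 and −0.18, lay above all CAR/PXR arrays. With all arrays, 5 of the 82 probes separated in this direction (6.1%), and neither Mm007 nor Mm008 did. How many probes separated without CARKO 5 was not counted. CARKO was lower than WT by −0.71 ± 0.19 for Mm007 and −0.61 ± 0.20 for Mm008 (SE). Both probes overlapped there, with WT 1 inside the CARKO range. In that comparison 6 of the 82 probes separated (7.32%).

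**Figure D2:**
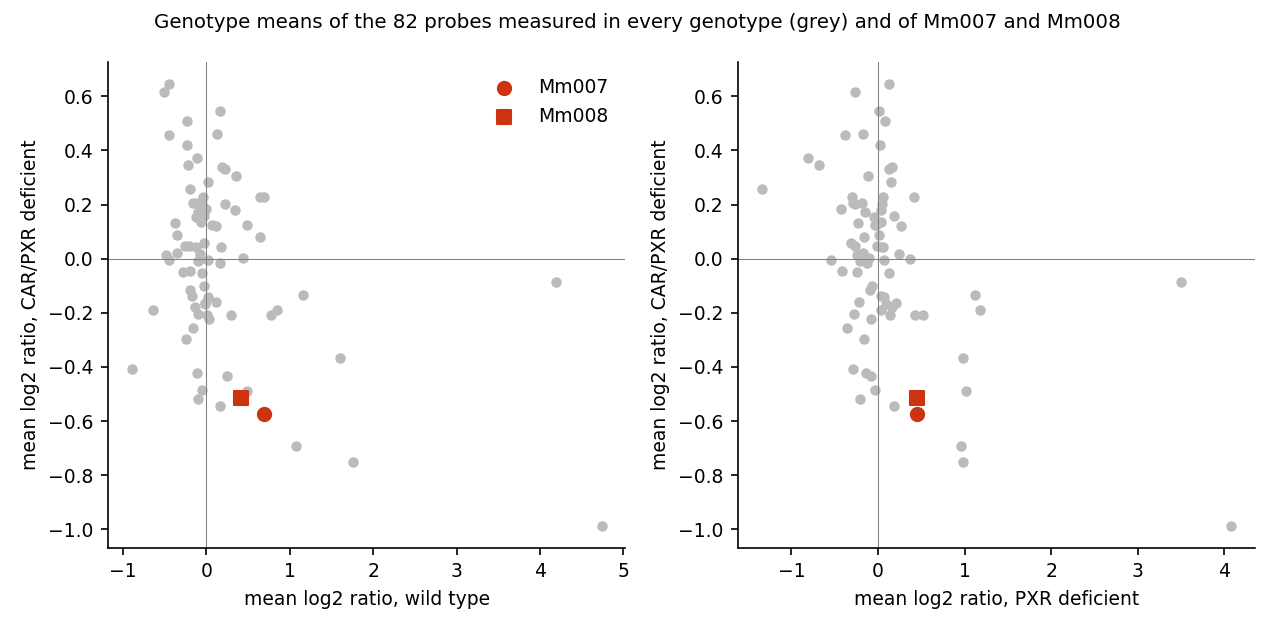
Mean log2 ratio in CAR/PXR-deficient liver (vertical axis) against that in wild type (left) and PXR-deficient liver (right) for the 82 probes measured in every genotype (grey) and for Mm007 and Mm008 (red). Both probes lie at the lower right of both panels, near 0.69 and −0.57 for Mm007 and 0.41 and −0.52 for Mm008 in the left one, beside a few probes with larger WT ratios.

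The ratio was also split into its channels, one for the treated livers and one for the pools. After loess and quantile normalization of the average intensities between arrays (Aquantile), Mm007 in the Cy5 channel was at a log2 intensity of 10.81 ± 0.27 in treated WT livers (SD, n = 6) and 10.41 ± 0.22 in treated CAR/PXR livers (SD, n = 4). In the Cy3 channel it was at 10.12 ± 0.13 for the WT pool and 10.99 ± 0.19 for the CAR/PXR pool (SD over 6 and 4 hybridizations of 1 pool each). The treated livers thus differed by −0.40 and the pools by 0.87 (CAR/PXR minus WT). The parts of Mm008 were −0.13 in Cy5 and 0.80 in Cy3. The Cy3 part was the larger in size for both probes, but this imbalance rests on the difference in average level, which did not pass the test given below. Without normalization within arrays the Cy3 part was −0.038 for Mm007 and 0.062 for Mm008, and the Cy5 part was 0.51 and 0.61. The Cy5 part did not keep its sign elsewhere either: with background subtraction it was 0.048 for Mm007 and 0.29 for Mm008, and for Mm008 it was 0.054 with each array centred on its median level and 0.022 without CAR/PXR 1. Since each genotype had 1 pool, the spread between control animals is not in these values, and a property of that pool cannot be told apart from the genotype.

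Treated CAR/PXR livers were lower than treated PXRKO livers by −0.64 for Mm007 and −0.86 for Mm008 in Cy5, while the pools differed by 0.38 and 0.11. Which part was larger turned with the scaling of levels: with each array centred on its median level, the Cy5 parts were −0.24 and −0.46 and the Cy3 parts 0.78 and 0.51. After Aquantile the Cy3 level of Mm007 was 10.12 in the WT pool, 10.51 in CARKO, 10.61 in PXRKO and 10.99 in CAR/PXR. The Cy3 levels of Mm008 were 9.46, 9.63, 10.15 and 10.26 in the same order. The order of the pools depended on that scaling: with arrays centred on their median level the Cy3 level of Mm007 stood above WT by 0.94 in CARKO, 0.13 in PXRKO and 0.90 in CAR/PXR. For Mm008 the CARKO value had an SD of 0.51 and included CARKO 3, where 1 of the 3 spots was at 4598 Cy3 units against 747 and 591 for the others.

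**Figure D3:**
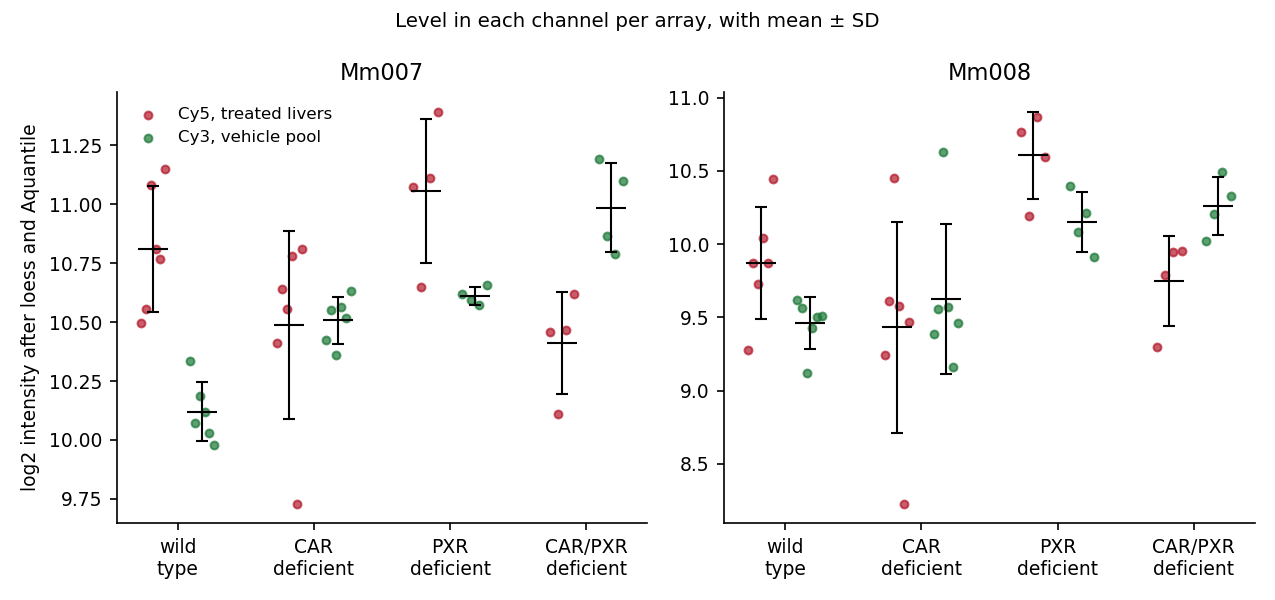
Log2 intensity of Mm007 (left) and Mm008 (right) after loess and Aquantile in the Cy5 channel (red, treated livers) and the Cy3 channel (green, vehicle pool of the genotype) on each array, with mean ± SD in black. For Mm007 the Cy3 level is 10.12 in WT and 10.99 in CAR/PXR, and the Cy5 level is 10.81 and 10.41. The order of the Cy3 levels changes with arrays centred on their median level.

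The average level of a probe over both channels was not part of the choice of the probes and was tested over the 82 probes with limma. In PXRKO the average level was higher than in WT by 0.37 ± 0.13 for Mm007 (SE, adjusted p = 0.0237) and by 0.71 ± 0.22 for Mm008 (SE, adjusted p = 0.0139, Benjamini-Hochberg). As 38 of the 82 probes passed the threshold of 0.05 in that comparison (46.3%), a change of level was not particular to Mm007 and Mm008. With arrays centred on their median level in place of Aquantile, 15 of the 82 probes passed. The calls of both Mm007 and Mm008 ended under that centring (limma, 0.0058 and 0.50, adjusted p = 0.984 and 0.283). That of Mm007 also ended without PXRKO 3 or PXRKO 4 (limma, adjusted p = 0.0534 and 0.0840). In CARKO neither probe passed (limma, 0.03 and −0.14, adjusted p = 0.852 and 0.726, with 13 of 82 probes called, 15.9%), but with background subtraction Mm007 did (limma, 0.69, adjusted p = 0.00953, with 52 of 82 probes called). In CAR/PXR neither passed either (limma, 0.23 and 0.34, adjusted p = 0.143 and 0.232, with 32 of 82 called, 39%), but with background subtraction both did (limma, 0.76 and 0.87, adjusted p = 0.0107 and 0.0485, with 44 of 82 probes called). The labels number the treated livers as replicates without saying that each came from another mouse, so the p-values measure only the spread between these samples. They also leave out the spread between control animals, and array handling by genotype cannot be told apart from genotype.

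The 2 probes moved together from array to array. Their log2 ratios had the same sign on 18 of 20 arrays, with WT 1 and CARKO 3 the exceptions. After the mean of each genotype was subtracted from each probe, they correlated with a Pearson r of 0.90 and a Spearman rho of 0.76 over the 20 arrays, and with 0.86 and 0.72 without CARKO 5. The points share the array, its loess curve and the pool of their genotype. Within WT, r was 0.95 and rho 0.83 (n = 6). Within CARKO, r was 0.96 and rho 0.31 (n = 6), and the high r rested on CARKO 5.

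After loess the agreement was closer in some genotypes than in others. Mm007 exceeded Mm008 on all 6 WT arrays, by 0.28 ± 0.15 (SD), and on all 6 CARKO arrays, by 0.18 ± 0.11 (SD). In PXRKO the difference was −0.01 ± 0.09 (SD, n = 4) and in CAR/PXR −0.06 ± 0.23 (SD, n = 4). The widest gap with Mm007 higher was 0.51 on WT 1, and the widest with Mm007 lower was −0.34 on CAR/PXR 2. These offsets depended on the normalization. With median centring the CAR/PXR means were −0.44 for Mm007 and −0.56 for Mm008, so Mm007 was then the higher there. The WT means were then 0.61 and 0.49. Without normalization Mm008 was the higher on WT 3 (−1.33 against −1.53) and WT 4 (−0.69 against −0.73). Mm007 was the higher on the other WT arrays.

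**Figure D4:**
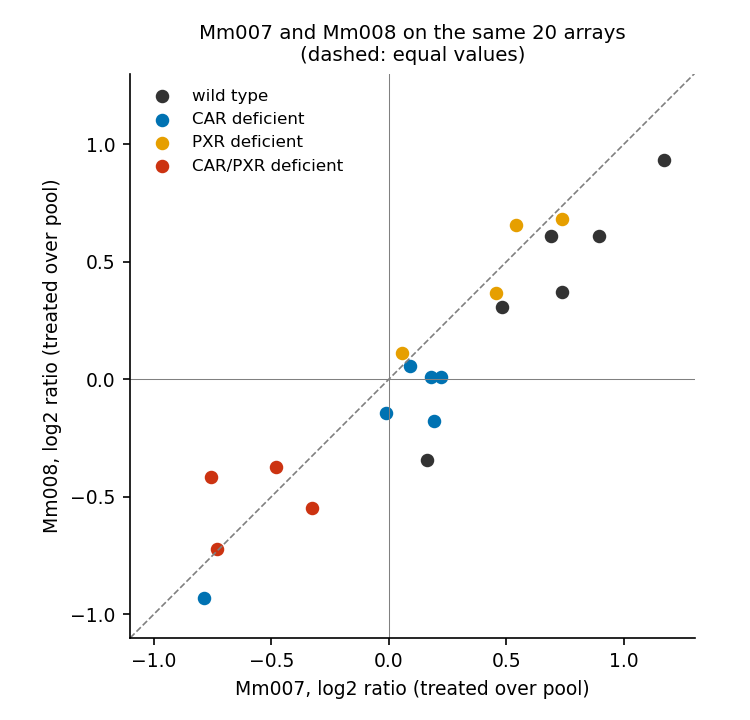
Log2 ratio of Mm008 (vertical axis) against that of Mm007 (horizontal axis) on the same 20 arrays, coloured by genotype, with the line of equal values dashed. The 4 CAR/PXR arrays and CARKO 5 lie in the lower left, and the WT arrays lie below the line because Mm007 was higher on all 6 after loess.

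Of the 78 other probes with values on at least 18 arrays, Mm051 and Mm037 had log2 ratios most like the mean of Mm007 and Mm008, with Pearson r of 0.91 and 0.88 over 20 arrays. Mm051 was at 1.60 ± 0.54 in WT, −0.33 ± 0.64 in CARKO, 0.99 ± 0.69 in PXRKO and −0.37 ± 0.02 in CAR/PXR (SD). Like the 2 probes, it was lowest on CARKO 5, at −1.60, lowest of the WT arrays on WT 1 and lowest of the PXRKO arrays on PXRKO 2. With genotype means subtracted its r was 0.88. Mm037 was at 1.07 ± 0.88, 0.27 ± 0.20, 0.95 ± 0.36 and −0.69 ± 0.45 in the same order (SD). With genotype means subtracted its r was 0.69, in place 10 of 78. Mm002, named after its values were seen, then stood first with r of 0.91, against 0.58 with the genotype means kept. Without CARKO 5 the order of the 2 probes turned, with r of 0.92 for Mm037 and 0.89 for Mm051. The most opposite probes were Mm154 and Mm135, with r of −0.89 and −0.81. Mm154 was at −0.38 ± 0.23 in WT and 0.13 ± 0.12 in CAR/PXR (SD), and Mm135 at −0.44 ± 0.15 and 0.46 ± 0.19 (SD). Mm135 was well above background on 15 of 20 arrays in Cy5. With median centring the r of Mm154 was −0.55. With genotype means subtracted r was −0.76 for Mm154 and −0.35 for Mm135, the latter in place 55 of 78, and Mm104, named after its values were seen, was lowest at −0.80.

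All signs above are relative to the other probes on an array. Before normalization within arrays, the log2 ratios on CAR/PXR 1 to 4 were 0.42, −0.17, 0.09 and 0.06 for Mm007 and −0.05, 0.07, −0.14 and 0.06 for Mm008. The median unnormalized ratio of the mouse probes on the same arrays was 0.42 to 0.72, and each value lay below that of its own array. In WT the unnormalized means were −0.44 ± 1.14 for Mm007 and −0.56 ± 1.10 for Mm008 (SD, n = 6), where the array medians ran from −2.03 to −0.05. In WT both probes lay above the median of their array on WT 2 to 6 and below it on WT 1. Without any normalization the CAR/PXR minus WT difference had the opposite sign, at 0.54 for Mm007 and 0.55 for Mm008.

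Centring on the calibration control spots moved the median of the 82 genotype means to −0.36 in WT, 0.30 in CARKO, 0.46 in PXRKO and −0.31 in CAR/PXR. Relative to those medians Mm007 was at 0.58, −0.08, 0.70 and −0.51 in the same order, and Mm008 at 0.46, −0.16, 0.66 and −0.62. As measured under that centring, CARKO minus WT was 0.0019 for Mm007 and 0.041 for Mm008, so the lower ratio in CARKO was no longer seen. The CAR/PXR minus WT difference was −1.03 for both probes under it. In the authors' deposited table the means of Mm007 were 0.22 in WT, −0.09 in CARKO, 0.82 in PXRKO and −0.76 in CAR/PXR. Those of Mm008 in the authors' deposited table were 0.08, −0.19, 0.79 and −0.99. In the authors' deposited table, Mm007 was below 0 on WT 1 to 4, at −0.95 to −0.27, and above 0 on WT 5 and 6, at 1.54 and 1.91. On PXRKO 2 the authors' deposited table had both below 0, at −0.27 for Mm007 and −0.19 for Mm008. The median mouse probe of the authors' deposited table was at −1.02 to −0.85 in the columns of WT 1 to 4 and at 0.64 to 0.65 in the other two WT columns, and how the authors centred it is not given in the sources used here.

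**Figure D5:**
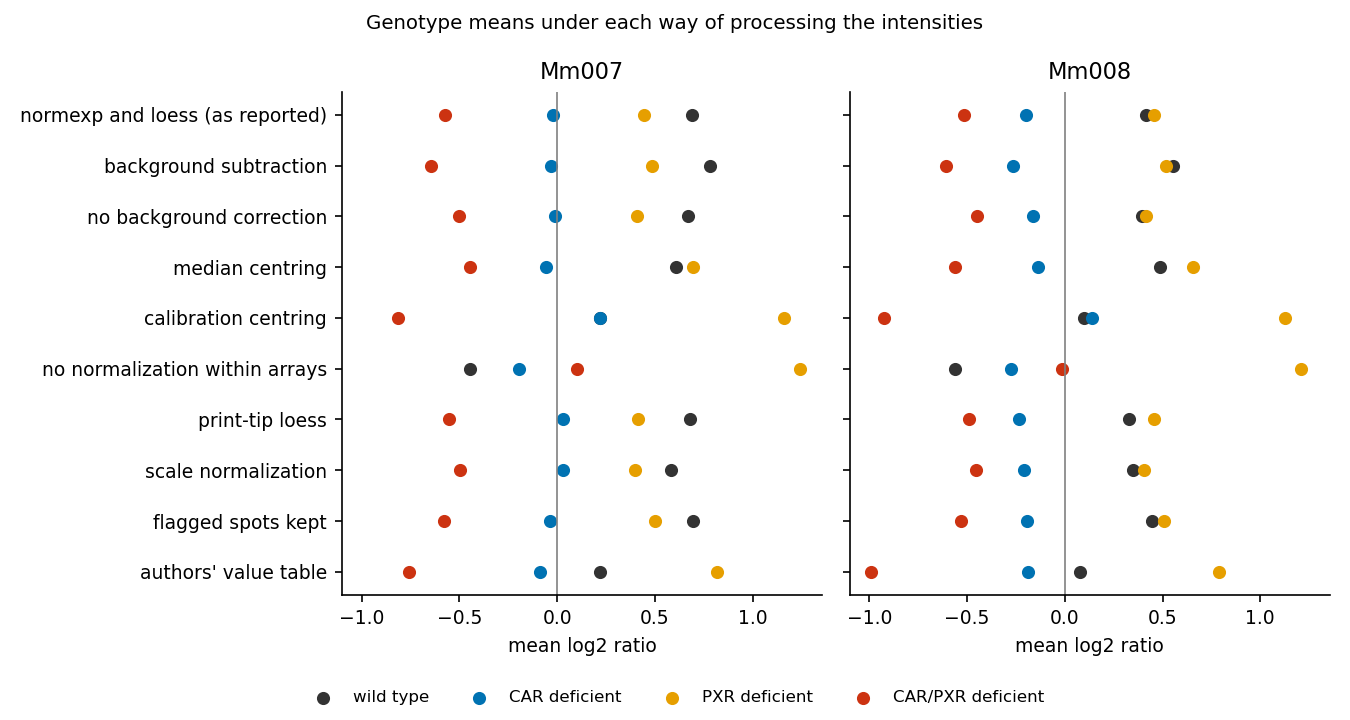
Mean log2 ratio (horizontal axis) of Mm007 (left) and Mm008 (right) in each genotype under 10 ways of processing the intensities (vertical axis). The CAR/PXR mean is the lowest in all of them except without normalization, where it lies at 0.10 and −0.01, above the WT means.

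Odd replicate numbers lay at larger and even ones at smaller vertical coordinates on the slide, so each genotype held both positions. Within each position the mean of both probes was above 0 in WT and PXRKO and below 0 in CAR/PXR. Only the sign of Mm008 in WT was open here. In the other sets all arrays had the same sign, so any split of them keeps it. In WT, Mm007 was at 0.60 and 0.78 and Mm008 at 0.21 and 0.62 (means of 3 arrays at the larger and the smaller coordinates). In CAR/PXR, Mm007 was at −0.53 and −0.62 and Mm008 at −0.64 and −0.40 (means of 2 arrays each). In CARKO the signs differed, at −0.20 and 0.16 for Mm007 and −0.42 and 0.03 for Mm008, with CARKO 5 among the arrays at the larger coordinates.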

How the data were processed

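Spot intensities (median foreground and local background, Cy5 and Cy3), the SD of the background and the saturated pixels in percent are as deposited, per the file headers, without normalization. Spot flags (values below 0) and coordinates come from the same tables. The authors' deposited value table holds log2 ratios per probe, whose centring is not given in the sources used here. Groups come from the sample titles.

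Intensities were corrected by normexp (offset 50) and log2 ratios by global loess per array in limma 3.58.1 (R 4.3.3), where controls and spots with a flag had weight 0. The unflagged spots of a probe, up to 3, were averaged. The 82 probes with values on at least 3 arrays of every genotype formed one table. Ratios got means, SDs and differences from a linear model with 1 mean per genotype, and no test. Average levels were tested after Aquantile normalization with lmFit and eBayes, Benjamini-Hochberg over 82 probes, threshold 0.05. On simulated levels of 82 probes for PXRKO minus WT, all 20 probes changed by a log2 difference of 1 were called, with 1 false call. Smaller differences, such as the 0.37 of Mm007 and the 0.71 of Mm008 in that comparison, were not simulated. Recovery at their size is therefore not known. The probes compared with Mm007 and Mm008 for likeness are the 2 with the highest and the 2 with the lowest correlation with their mean, among those on at least 18 arrays. Mm002 and Mm104 were added after their values were seen. Mm050, Mm051, Mm052, Mm076, Mm096 and Mm137 were named because their means shared the signs over the genotypes. Probes, lists and alternatives were chosen with earlier results of these data known. Alternatives covered background correction, normalization, flags, saturated spots, the median of spots, the deposited table, slide position, replicate number and single arrays; no normalization, the channel parts, the median of spots for average levels and the likeness without CARKO 5 were added after the data were seen.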

Additional observations from a re-analysis of the deposited data

Results flagged for a closer look

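On CARKO 5 the log2 ratio was −0.79 for Mm007, against −0.01 to 0.22 on the other 5 CARKO arrays, and −0.93 for Mm008, against −0.18 to 0.06. Both stood apart by the gap between the lowest array and its neighbour relative to the range of the group. Of the 16 sets of 4 or 6 values examined (ratios and average levels of 2 probes in 4 genotypes), these 2 stood apart, and chance gives about 1 in 20. They come from 1 array and are not independent.

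For Mm007 all WT arrays lay above 0 and all CAR/PXR arrays below 0, with a CAR/PXR minus WT difference of −1.26. The same held against PXRKO, with −1.02 for Mm007 and −0.97 for Mm008. These differences were not tested, because the sign in each genotype was used to choose the probes. All CAR/PXR arrays lay below all WT arrays for 14 of the 82 probes (17.1%). They lay below all PXRKO arrays for 12 of the 82 (14.6%). Opposite signs on all arrays of 2 genotypes were not counted over the 82 probes.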

How the results depend on the processing

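The CAR/PXR mean stayed below 0 and the WT and PXRKO means above 0 for both probes under each alternative other than leaving out normalization within arrays. Where arrays were only left out or split by position, just the sign of Mm008 in WT was open among these. In the other sets all arrays shared the sign, so it could not change. Without normalization within arrays, Mm007 was at −0.44 in WT, 1.24 in PXRKO and 0.10 in CAR/PXR, and Mm008 at −0.56, 1.21 and −0.013. The differences of Mm007 were then 0.25 (CARKO minus WT), 1.69 (PXRKO minus WT), 0.54 (CAR/PXR minus WT) and 0.29 (CAR/PXR minus CARKO), and those of Mm008 0.29, 1.77, 0.55 and 0.26. With calibration centring Mm007 was at 0.22 in WT, 0.22 in CARKO, 1.16 in PXRKO and −0.81 in CAR/PXR, and Mm008 at 0.14 in CARKO, 1.12 in PXRKO and −0.93 in CAR/PXR. The differences of Mm007 were 0.0019 (CARKO minus WT), 0.94 (PXRKO minus WT), −1.03 (CAR/PXR minus CARKO) and −1.97 (CAR/PXR minus PXRKO), and those of Mm008 0.041, 1.02, −1.07 and −2.05. In the authors' deposited table Mm007 was at 0.22 in WT and 0.82 in PXRKO, with −0.31 for CARKO minus WT, 0.60 for PXRKO minus WT and −1.58 for CAR/PXR minus PXRKO. In the same deposited table Mm008 was at 0.79 in PXRKO and −0.99 in CAR/PXR, with 0.71 for PXRKO minus WT, −0.80 for CAR/PXR minus CARKO and −1.78 for CAR/PXR minus PXRKO. The small values near 0 changed sign elsewhere. Mm007 in CARKO was 0.029 with print-tip loess, 0.032 with scale normalization, 0.16 at the smaller slide coordinates (Mm008 0.026) and −0.066 to 0.13 when 1 array was left out. PXRKO minus WT was 0.087 for Mm007 with median centring, and for Mm008 −0.038 with background subtraction, −0.22 at the smaller coordinates and −0.11 to 0.15 when 1 array was left out. The cause was not tested.

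The channel parts turned sign as follows. With background subtraction the Cy5 part was 0.048 for Mm007 and 0.29 for Mm008 in CAR/PXR minus WT, and 0.28 and 0.0045 in CARKO minus WT. With median centring of levels the Cy5 part was 0.054 for Mm008 in CAR/PXR minus WT, and for Mm007 0.23 in CARKO minus WT and −0.12 in PXRKO minus WT. With calibration centring the parts of CARKO minus WT were 0.034 for Mm007 in Cy5 and −0.16 for Mm008 in Cy3, and that of Mm007 in Cy3 for PXRKO minus WT was −0.10. Without normalization the Cy5 parts were 0.51 and 0.61 in CAR/PXR minus WT and 0.16 and 0.0083 in CARKO minus WT (Mm007, Mm008). The Cy3 parts were then −0.038 for Mm007 in CAR/PXR minus WT, −0.092 and −0.28 in CARKO minus WT, and −0.48 and −0.17 in PXRKO minus WT. The Cy3 part of Mm008 in CARKO minus WT was −0.10 without the 4 arrays with conflicting text and −0.031 to 0.26 when 1 array was left out, and its Cy5 part in CAR/PXR minus WT was −0.25 to 0.022. No channel part of CAR/PXR minus PXRKO turned sign.

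Average levels under limma changed as follows. With median centring of levels, Mm008 in CARKO minus WT was 0.23, PXRKO minus WT was 0.0058 for Mm007 and 0.50 for Mm008, and 15 probes were called in PXRKO and 18 in CAR/PXR. With background subtraction CARKO minus WT was 0.69 for Mm007 and 0.42 for Mm008 with 52 probes called, and CAR/PXR minus WT was 0.76 and 0.87. Without the 4 arrays with conflicting text 7 probes were called in CARKO. Leaving out 1 array gave −0.012 to 0.11 for Mm007 and −0.34 to 0.030 for Mm008 in CARKO minus WT, and 0.30 to 0.44 for Mm007 in PXRKO minus WT.

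With the replicate number as a replicate block, CAR/PXR minus WT was −1.27 for Mm007 and −0.94 for Mm008, and no call of an average level changed. Same-numbered arrays lay at the same slide position. Of their 26 pairs, 11 correlated above 0.1 over the 82 probes, from −0.50 to 0.31. Pairs with different numbers were not compared, so what else same-numbered arrays shared cannot be told. The number of arrays and of pools limits the precision, and Mm008 lay near background in 1 channel on CARKO 5 and CAR/PXR 1.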
